A study of Mus musculus with 12 samples.

Results

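RIKEN cDNA clones are mouse transcripts that were copied into DNA and catalogued one by one from libraries of many tissues, and the first digits of a clone's name give its library. The 354 probes described here are those whose clone name begins with 1110, 2410, 2610, 2700, 2810 or 5730, prefixes of embryo and embryonic stem cell libraries. They were chosen by name alone, out of 15675 RIKEN clone probes and 97836 probes in all on a custom Agilent array, and the other 15321 RIKEN clone probes served for comparison. By prefix, 108 probes were from 5730, 72 from 2610, 67 from 1110, 58 from 2810, 29 from 2700 and 20 from 2410. A probe was printed on 2 spots for 266 of the clones and on 1 spot for 88.

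The cells were cultured smooth muscle cells of the vessel wall (VSMCs) from male mice, measured on 12 single-colour arrays, 3 in each of 4 groups. Floxed cells carried Hif1a fl/fl, the intact but recombinable alleles of the gene that encodes HIF-1 alpha, the subunit of hypoxia-inducible factor 1 (HIF-1) whose stability depends on oxygen. Deleted cells came from mice with Hif1a disrupted in smooth muscle, labelled Hif1a△SMC, and the labels name no promoter that drives the recombination. Each genotype received 150 µM cobalt chloride (CoCl2) or the same volume of buffered saline (PBS) as control, for 24 h. No probe of these clones matched Hif1a, so the disruption was not checked here. Nothing in the labels states that replicate arrays stem from independent cultures or mice, so p-values reflect only the spread among these samples, which may be technical. With 3 arrays a group, precision is limited. The question the design puts is how CoCl2 changes the RNA of VSMCs with and without Hif1a.

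In oxygenated cells HIF-1 alpha is hydroxylated and degraded, and cobalt blocks that hydroxylation, so the protein accumulates and drives genes of glycolysis, angiogenesis and iron handling through short DNA elements with the core ACGTG or GCGTG. CoCl2 also acts on cells without HIF-1, through oxidative stress and the displacement of other metals. Clones of embryo and stem cell libraries often represent genes of growth, RNA handling and protein turnover that are used in many cell types, and some represent long noncoding RNAs (lncRNAs), which are named by their clone. A clone's probe can report a transcript of the locus other than the coding one, so each clone is described as linked to its locus and not as the gene itself.

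A clone was linked to a locus where a RefSeq symbol or synonym (assembly GRCm38.p6) equals the clone's name. This named 144 of the 354 clones (40.7%), at 142 loci, against 7.26% of the other RIKEN clones. The linked loci were protein-coding for 110 clones, lncRNA for 32 and transcribed pseudogenes for 2, and 30 clones carried a locus name that is itself a clone name. The remaining 210 clones matched none and keep their clone names.

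The upstream DNA of 6 linked loci is shown because their clones carry the main patterns. The clones of Ttll7 and Ndfip2 rose with CoCl2 in both genotypes, those of Jpt2 and Cep83 fell in floxed cells, and those of Mob4 and 2810429I04Rik fell in deleted cells with no call in floxed cells. Each line gives the 250 bases before the transcription start, 5′ to 3′ on the gene's strand, from RefSeq with build GRCm38.p6, and capitals mark ACGTG or GCGTG on either strand.
Ttll7, chr3:146852117-146852366, plus strand: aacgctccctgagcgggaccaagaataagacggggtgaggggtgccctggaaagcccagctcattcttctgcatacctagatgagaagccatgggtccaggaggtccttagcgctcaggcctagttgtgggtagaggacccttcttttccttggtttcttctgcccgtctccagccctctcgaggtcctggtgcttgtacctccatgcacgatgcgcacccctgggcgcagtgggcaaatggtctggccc
Ndfip2, chr14:105258373-105258622, plus strand: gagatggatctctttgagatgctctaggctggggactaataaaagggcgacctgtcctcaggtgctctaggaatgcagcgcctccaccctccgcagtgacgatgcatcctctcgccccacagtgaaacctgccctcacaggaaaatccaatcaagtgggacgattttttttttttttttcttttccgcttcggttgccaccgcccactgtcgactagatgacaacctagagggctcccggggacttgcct
Jpt2, chr17:24960624-24960873, minus strand: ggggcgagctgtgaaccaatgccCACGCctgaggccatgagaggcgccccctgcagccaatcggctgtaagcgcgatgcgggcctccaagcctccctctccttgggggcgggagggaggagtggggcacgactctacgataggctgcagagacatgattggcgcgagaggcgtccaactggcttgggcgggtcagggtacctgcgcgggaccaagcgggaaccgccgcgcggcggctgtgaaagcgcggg
Cep83, chr10:94688540-94688789, plus strand: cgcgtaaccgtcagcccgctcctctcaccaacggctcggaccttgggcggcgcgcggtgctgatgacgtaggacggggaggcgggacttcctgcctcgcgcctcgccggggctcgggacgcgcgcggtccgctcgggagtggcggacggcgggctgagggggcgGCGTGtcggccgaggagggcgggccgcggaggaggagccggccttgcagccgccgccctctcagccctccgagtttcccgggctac
Mob4, chr1:55130995-55131244, plus strand: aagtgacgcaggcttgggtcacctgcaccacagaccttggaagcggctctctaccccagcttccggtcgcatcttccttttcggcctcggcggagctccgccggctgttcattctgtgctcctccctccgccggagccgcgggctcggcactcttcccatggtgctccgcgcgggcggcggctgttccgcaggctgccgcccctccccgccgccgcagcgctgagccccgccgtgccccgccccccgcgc
2810429I04Rik, chr13:3477982-3478231, plus strand: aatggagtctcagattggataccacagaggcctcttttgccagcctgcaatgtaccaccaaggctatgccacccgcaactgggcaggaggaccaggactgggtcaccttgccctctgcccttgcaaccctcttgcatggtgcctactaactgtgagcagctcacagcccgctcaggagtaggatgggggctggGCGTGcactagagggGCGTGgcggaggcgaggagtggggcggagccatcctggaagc

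The windows of Ttll7, Ndfip2 and Mob4 held no match, those of Jpt2 and Cep83 held 1 each, and that of 2810429I04Rik held 2. Windows were found for 115 of the 142 loci, 147 windows in all, and 51.7% of them held at least 1 match. The share was 43.5% among 1010 windows at loci of other RIKEN clones and 38.6% among all 32851 windows. The palindrome CACGTG contains the first core on both strands. A match is a stretch of letters, and its absence says only that these letters are not in the window.

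These clones were readily detected in VSMCs, and less so in deleted cells with CoCl2. A probe was taken as detected on an array where at least 50% of its spots were marked well above background by the scanner software. In floxed cells 82.8% ± 2.41 (SD, n = 3) of the 354 clones were detected with PBS and 84.9% ± 6.55 with CoCl2. In deleted cells the shares were 83.6% ± 1.02 with PBS and 70.5% ± 2.40 with CoCl2. All 3 deleted CoCl2 arrays, at 67.8% to 72.3%, lay below the other 9 arrays, the lowest of which was at 78.0%. Other RIKEN clones were at 73.6%, 77.1%, 75.6% and 57.6% in the same order of groups, so the embryo-library clones lay above them in each group.

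**Figure D1:**
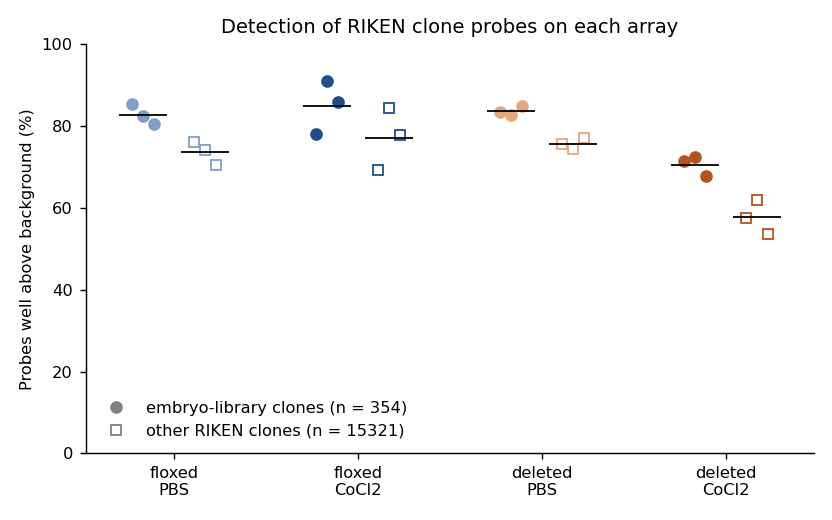
Percent of probes well above background on each array (y axis, linear from 0) in the 4 groups (x axis), with filled circles for the 354 embryo-library clones, open squares for the 15321 other RIKEN clones and bars for means of 3 arrays. The clones sit above the other RIKEN clones on every array, and both classes are lowest on the deleted CoCl2 arrays.

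On all 12 arrays 227 clones (64.1%) were detected, against 49.2% of the other RIKEN clones and 51.2% of all probes. On no array were 22 clones detected (6.21%), against 12.1% of other RIKEN clones. Clones linked to a locus were detected on all arrays in 70.8% of cases and unlinked clones in 59.5%. By library prefix the share ran from 56.5% for 5730 to 72.4% for 2700. No clone was saturated on any array.

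A further 15 clones were detected on the 9 other arrays and on none of the deleted CoCl2 arrays, and no clone showed the opposite change from PBS to CoCl2 in deleted cells. Among the 15 were 2810442N19Rik, 5730488B01Rik, Sox6os (the transcript opposite the transcription factor gene Sox6), the membrane protein locus Tmem132c and the unnamed clones 2610312I10 and 1110059G02. CoCl2 in deleted cells was called for 12 of the 15. They were picked by lost detection in these same groups, so such calls were nearly fixed beforehand and are no separate result. Detection of all probes fell too, from 76.6% with PBS to 58.3% with CoCl2 in deleted cells. How many of all probes were lost in this way was not counted. The 75th percentile of signal on these arrays, to which every value is set, was also lowest there, at log2 8.09 to 8.28 against 9.02 to 9.52 on the others. The signal of the 3′ over the 5′ control probes of Pgk1, a measure of RNA integrity, was 2.67 ± 0.19 on these arrays in log2, against group means of 2.81 to 3.07, and its range of 2.46 to 2.82 overlapped that of floxed CoCl2 arrays (2.69 to 3.01). For Gapdh the same measure was -2.12, within the other groups' means of -2.32 to -1.92. The part of signal or RNA integrity in the detection counts was not tested. In bulk RNA, fewer cells that make a transcript and less of it per cell cannot be told apart.

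Levels are log2 signal minus the 75th percentile of the array, a difference of 1 is a doubling, and 289 of the 354 clones were tested (81.6%). These were detected on all 3 arrays of at least 1 group. A clone that passed only through the group where it is high had to differ, so counts over the 289 are descriptions. A clone is called where limma's moderated test gives a Benjamini-Hochberg adjusted p below 0.05 over the 73998 probes tested. The comparisons share arrays in part: CoCl2 in floxed and in deleted cells share none, while each deletion contrast shares groups with both.

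**Figure D2:**
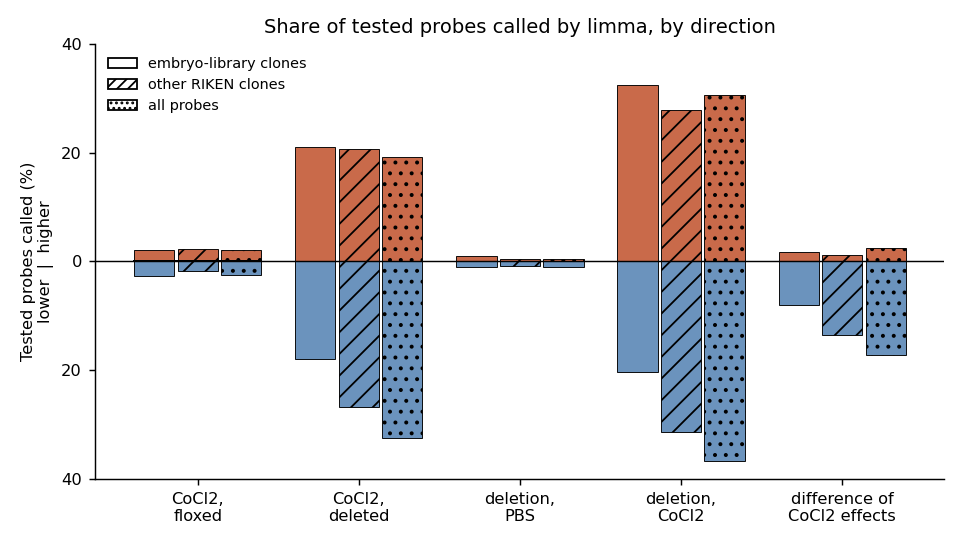
Percent of tested probes called higher (upward) or lower (downward) by limma (y axis) in 5 contrasts (x axis) for embryo-library clones (plain), other RIKEN clones (hatched) and all probes (dotted). Calls are few for CoCl2 in floxed cells and for deletion under PBS, and the clones have fewer lower calls than the other classes in deleted cells with CoCl2.

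In floxed cells CoCl2 changed few of these clones, 14 of 289 (4.84%), with 6 higher and 8 lower, beside a background of 4.64% of all probes tested (2.06% higher, 2.58% lower) and 4.06% of other RIKEN clones. A share this near the background says nothing particular of the clones. Unadjusted limma p was below 0.05 for 52 of the 289 clones, beside 12316 of all 73998 probes. The median log2 change was 0.00 for the clones and 0.01 for all probes. In all 14 the 3 CoCl2 arrays did not overlap the 3 PBS arrays, which held for each call among all probes too (4.64% called without overlap).

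The rises were led by clone 2410038B05, which has no locus name here. Its floxed levels were -3.16, -2.81 and -3.06 with PBS and -1.26, -0.59 and -0.60 with CoCl2. This is a rise of 4.57-fold (limma adjusted p = 0.00212, log2 change 2.19 with SE 0.28), and the arrays of the treated group all lay above the untreated ones. Clone 2810040C05 read -0.42, -0.53 and -0.83 with PBS and 0.86, 0.77 and 0.72 with CoCl2, a 2.60-fold rise (log2 change 1.38, SE 0.23, adjusted p = 0.0078). Its 3 treated arrays lay close together and well above the untreated ones. Clones 2700007L21 (log2 change 1.22, SE 0.31) and 2700029L08 (1.19, SE 0.25) also passed.

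Ttll7, which encodes an enzyme that adds glutamate chains to tubulin, was 1 of the 2 named loci that rose. Its clone 1110049N09 read -2.50, -2.95 and -2.70 with PBS and -1.72, -1.47 and -0.85 with CoCl2. It rose 2.59-fold (limma adjusted p = 0.0105, log2 change 1.37 with SE 0.25), and the groups did not overlap. The call was lost without floxed PBS array 2 (adjusted p = 0.0537) or floxed CoCl2 array 3 (0.05). The clone of Ndfip2, which encodes an adaptor that recruits ubiquitin ligases of the Nedd4 family, rose 1.93-fold (log2 change 0.95, SE 0.24, adjusted p = 0.0493). That value is close to the threshold, and the call was lost in 20 of 27 alternatives, among them the replicate number as a block (0.0747) and that block within genotype (0.0727). It was also lost without any 1 array other than deleted CoCl2 array 2 or 3 (0.0558 to 0.214).

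The falls were led by the clone of Jpt2, a microtubule-associated protein, and by clone 1110055C04. Clone 2810430B18 at Jpt2 read 1.98, 1.43 and 1.79 with PBS and 0.84, 0.07 and -0.27 with CoCl2 in floxed cells. It fell 2.86-fold (limma adjusted p = 0.0192, log2 change -1.52 with SE 0.31), and the highest treated array was below the lowest untreated one. Without floxed PBS array 1 or 3, or floxed CoCl2 array 2 or 3, its adjusted p was between 0.0655 and 0.0991. Clone 1110055C04 fell 2.86-fold as well (log2 change -1.52, SE 0.28, adjusted p = 0.0107) and was detected on 1 of the 3 treated arrays. Its call was lost without floxed PBS array 2 (0.0513) or floxed CoCl2 array 3 (0.0613).

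Cep83 encodes a protein of the appendages that anchor a centriole to the membrane when a cilium forms. Its clone 5730513H21 read 0.21, 0.19 and 0.05 with PBS and -0.55, -1.04 and -0.96 with CoCl2. The fall was 2.00-fold (limma adjusted p = 0.00922, SE 0.18 on the log2 scale), and it was lost without floxed CoCl2 array 3 (0.054). The clone of Entpd1, the ectonucleotidase CD39 that breaks down extracellular ATP, fell 1.61-fold (log2 change -0.69, SE 0.15, adjusted p = 0.0255). With the replicate number as a block within genotype, Entpd1 no longer passed (0.063), nor did it without 1 of 5 arrays (0.0506 to 0.12): floxed PBS 2 or 3, floxed CoCl2 2 or 3, or deleted PBS 1. Clones 2700047H13 (-1.24), 1110019I16 (-1.14), 2610206P12 (-1.06) and 1110061K10 (-1.06) completed the 8 falls, all given as log2 changes. The call of 2700047H13 was lost without floxed PBS array 2 (0.0648) or floxed CoCl2 array 3 (0.0672).

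The calls in floxed cells rested on few arrays. Without floxed CoCl2 array 3 there were 3 calls, without floxed PBS array 2 there were 4, and without floxed PBS array 3 or floxed CoCl2 array 2 there were 7 each. The calls among all probes fell as well, from 3434 of 73998 to 1002, 1352, 1748 and 2041 in that order of arrays. Floxed PBS and 1 floxed CoCl2 array shared slide 1. Slide 2 carried the other floxed CoCl2 arrays with 2 deleted PBS arrays, and slide 3 the last deleted PBS array with all deleted CoCl2 arrays. Deleted CoCl2 array 2 was scanned 4 days after all other arrays. Its 6 E1A spike-in probes lay 2.11 log2 units above the 75th percentile, against 1.64 and 1.81 on deleted CoCl2 arrays 1 and 3. The part of the scan day was not tested. With slide as a fixed block no clone was called, beside 617 of 73998 probes. Within slide 1 the CoCl2 array differed from the mean of the PBS arrays by 1.75 for clone 2410038B05, 1.45 for 2810040C05, 1.00 for Ttll7, -0.89 for Jpt2 and -0.70 for Cep83.

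**Figure D3:**
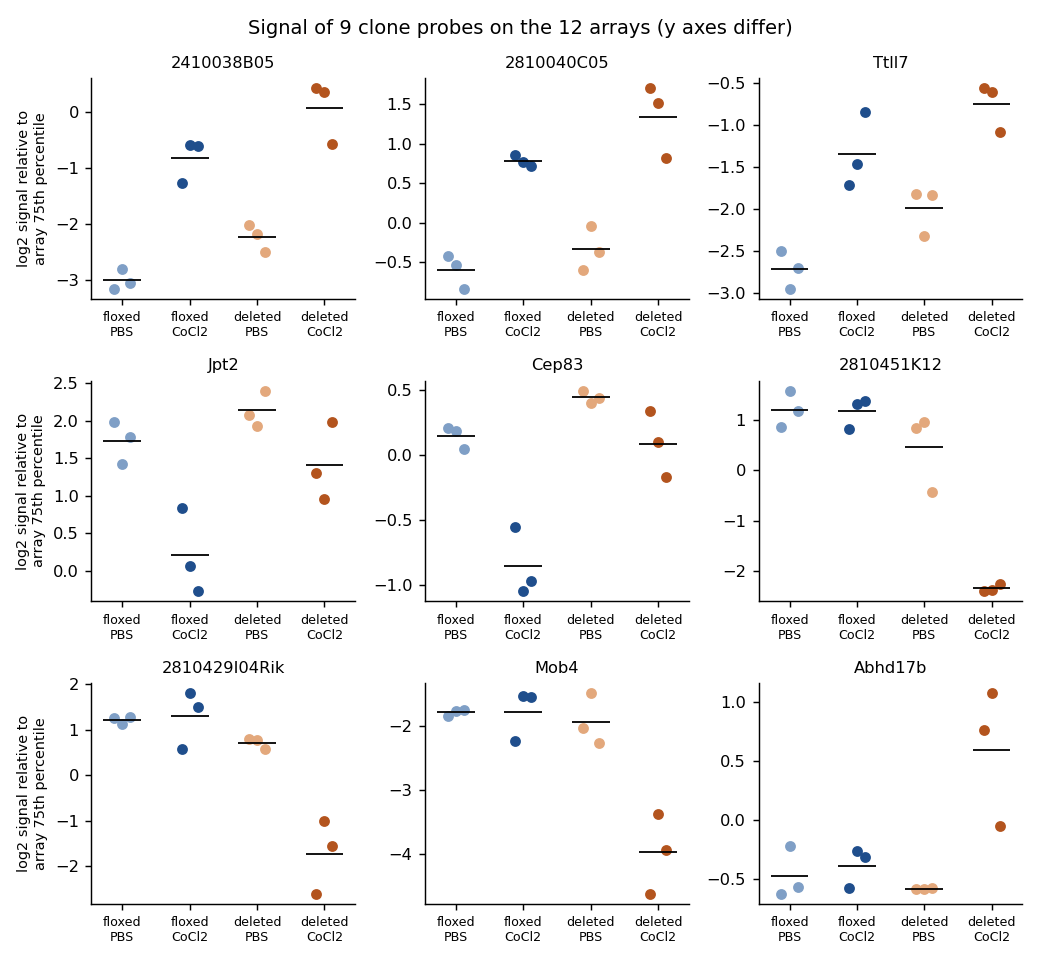
Log2 signal minus the array's 75th percentile (y axes, which differ between panels) for 9 clones on the 12 arrays, by group (x axes), with a point for each array and a bar for the group mean. The top row rose with CoCl2 in both genotypes, Jpt2 and Cep83 fell in floxed cells, and 2810451K12, 2810429I04Rik and Mob4 are lowest on the 3 deleted CoCl2 arrays.

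In deleted cells CoCl2 changed 113 of 289 clones (39.1%), with 61 higher and 52 lower, beside a background of 51.8% of all probes tested, and 47.6% of other RIKEN clones. Among all probes 32.5% were called lower and 19.3% higher. The median log2 change was 0.09 for the clones and -0.15 for all probes. Calls without overlap between the groups made up 36.3% of the clones tested, beside 48.7% of all probes tested. A count of calls depends here on how arrays are scaled to each other: the higher and lower calls were 38 and 66 with the 75th percentile taken over probes detected on all arrays, 15 and 80 with 6 E1A spike-in probes, which read control RNA added to the samples, as the standard, and 137 and 35 with the array median. The calls of all probes moved the same way: of 38309 called 14272 were higher, and the numbers were 9643 of 37689, 3684 of 35481 and 26225 of 42069 with these scalings in that order.

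The same 6 clones that CoCl2 raised in floxed cells were called higher in deleted cells too. How many of all probes raised in floxed cells were also raised in deleted cells was not counted, so the overlap is not read as particular to these clones. Clone 2410038B05 read -2.02, -2.18 and -2.50 in deleted cells with PBS and 0.42, 0.35 and -0.57 with CoCl2. The rise was 4.94-fold (log2 change 2.30, SE 0.28, limma adjusted p = 0.000138), near the 2.19 of floxed cells, and the difference between the log2 changes was 0.11 (SE 0.39, 95% interval -0.75 to 0.97). The clone was called under all alternatives in deleted cells and under all but the fixed slide block in floxed cells. Clone 2810040C05 rose by 1.68 on the log2 scale (SE 0.23), Ttll7 by 1.24 (SE 0.25), Ndfip2 by 1.17 (SE 0.24), 2700029L08 by 1.14 (SE 0.25) and 2700007L21 by 1.77 (SE 0.31). The difference from floxed cells passed for none of the 6, with log2 estimates from -0.13 to 0.55.

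Of the 8 clones that fell in floxed cells, 4 also fell in deleted cells, among them Entpd1 at -1.08 (SE 0.15). The 4 without a call there were Jpt2 (-0.72, SE 0.31), Cep83 (-0.36, SE 0.18), 1110055C04 (-0.47, SE 0.28) and 1110019I16 (-0.52, SE 0.22), all in log2. Jpt2 read 2.08, 1.93 and 2.39 in deleted cells with PBS and 1.30, 0.96 and 1.97 with CoCl2, so the groups overlapped. The difference between genotypes did not pass for these 4 (limma adjusted p = 0.0791 to 0.218), so the smaller falls in deleted cells were not shown to differ from those in floxed cells.

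**Figure D4:**
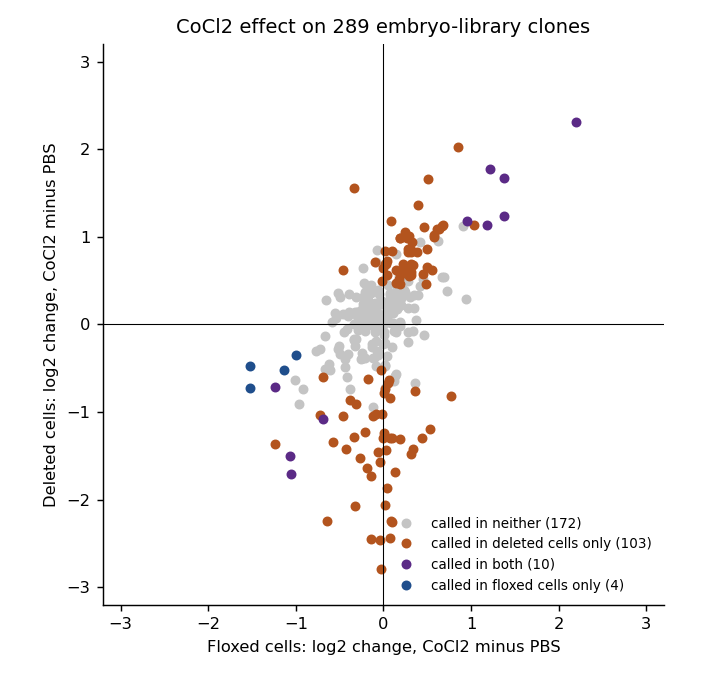
Log2 change with CoCl2 in deleted cells (y axis) against that in floxed cells (x axis) for the 289 clones tested, coloured by where limma called them. A total of 10 clones were called in both genotypes, 4 in floxed cells and 103 in deleted cells alone, and the lowest points lie near 0 on the x axis. The same counts were not made over all probes.

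The largest rise in deleted cells at a named locus was that of Rnf6, a RING-type ubiquitin ligase. Clone 5730419H05 at Rnf6 read -3.00, -3.99 and -3.02 with PBS and -0.97, -1.15 and -1.80 with CoCl2. It rose 4.08-fold (log2 change 2.03, SE 0.35, limma adjusted p = 0.000791), without overlap. Its floxed levels were -3.29, -3.47 and -3.77 with PBS and -3.14, -2.84 and -2.01 with CoCl2 (log2 change 0.85, SE 0.35, not called). The difference between genotypes was not called for Rnf6, so its rise was not shown to differ between them.

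The clones linked to genes of ubiquitin transfer and protein breakdown were counted as a list. Of its 4 tested clones, 3 rose in deleted cells with CoCl2 and none fell, with a median log2 change of 0.71 against -0.15 for all probes, of which 51.8% were called and 19.3% called higher. Besides Rnf6 these were Rnf220, another RING-type ligase (0.84, SE 0.15), and Ube2j2, a ubiquitin-conjugating enzyme of the endoplasmic reticulum (0.57, SE 0.19). Klhl22, an adaptor of cullin ligases, made up the 4. Rnf220 lost its call with the 6 E1A probes as the standard (adjusted p = 0.0542), and Ube2j2 lost it in 11 of 27 alternatives, among them without deleted PBS array 1 (0.0756) or 2 (0.101) or deleted CoCl2 array 1 (0.105).

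Other named rises of more than 1 log2 unit were at Abhd17b, which encodes an enzyme that removes palmitate from proteins, at 1.18 (SE 0.25), Proser1 at 1.14 (SE 0.28), the lncRNA 1110046J04Rik at 1.13 (SE 0.24), Stam2, a sorting protein for ubiquitinated cargo on endosomes, at 1.08 (SE 0.19), and the zinc finger protein Zfp622 at 1.05 (SE 0.24). Abhd17b read -0.59, -0.58 and -0.58 in deleted cells with PBS and 0.77, 1.08 and -0.05 with CoCl2. The lowest treated array was still above all 3 untreated ones, although the treated arrays were widely spread. Stam2 and 1110046J04Rik kept their call under all 27 alternatives.

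Of the 52 clones that fell in deleted cells, 30 were not detected on all 12 arrays, and 22 were. Of all probes 24037 were called lower, 9876 of them detected on all 12 arrays. Clone 2810451K12, with no locus name and detected on all 12 arrays, read 0.84, 0.96 and -0.44 with PBS and -2.39, -2.37 and -2.25 with CoCl2. It fell by 2.79 on the log2 scale (SE 0.33, limma adjusted p = 0.000129), and its floxed levels of 0.85, 1.57 and 1.18 with PBS and 0.82, 1.32 and 1.38 with CoCl2 gave a change of -0.03. Clone 2610312I10 read -1.74, -1.94 and -2.48 with PBS and was below detection on every deleted CoCl2 array. It was at least 4.45-fold lower there. Such a bound compares the brighter mean with the dim group's mean of, per array, whichever is higher: the dimmest detected signal or what the probe itself read.

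The clone of 2810429I04Rik, an lncRNA locus, read 0.80, 0.78 and 0.57 in deleted cells with PBS and -2.60, -1.01 and -1.54 with CoCl2. It fell by 2.43 on the log2 scale (SE 0.37, limma adjusted p = 0.000464), with all 3 treated arrays below every other array in the study. Among lncRNA loci, 2810442N19Rik was at least 3.71-fold lower, 4933439C10Rik fell by 2.07 (SE 0.45), 5730488B01Rik was at least 1.46-fold lower and 5730408K05Rik fell by 1.53 (SE 0.17). The call of 4933439C10Rik rested on a wide treated spread, with arrays at -2.21, 0.01 and -0.30.

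Mob4 encodes a subunit of the STRIPAK phosphatase complex. Its clone 2610109B12 read -2.03, -1.48 and -2.27 in deleted cells with PBS and -4.63, -3.38 and -3.94 with CoCl2, and was detected on 1 of those 3 arrays. It fell by 2.06 on the log2 scale (SE 0.31, limma adjusted p = 0.000435). In floxed cells it read -1.83, -1.76 and -1.74 with PBS and -2.24, -1.53 and -1.54 with CoCl2, so the groups overlapped (log2 change 0.01). Lrrn1, a membrane protein with leucine-rich repeats, fell by 1.64 (SE 0.35).

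The 1 clone linked to a smooth muscle marker was 1110069I04 at Synpo2, an actin-bundling protein of muscle, and it was detected on all 12 arrays. It read 0.98, 1.45 and 1.50 in floxed cells with PBS, and 1.01, 1.40 and 1.41 with CoCl2. Deleted cells gave 1.16, 1.40 and 1.12 with PBS and 0.83, 0.67 and 0.61 with CoCl2. The log2 change with CoCl2 in deleted cells was -0.52 (SE 0.18, limma adjusted p = 0.0326), without overlap. The call was lost with the array median, with the 10 E1A probes as the standard, with either slide block, and without deleted PBS array 1 (0.0642) or 2 (0.12) or deleted CoCl2 array 2 (0.0649) or 3 (0.0752). No embryo-library clone matched a marker of endothelial cells, fibroblasts, macrophages or embryonic stem cells, so those cell types were not assessed with these clones.

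Other lists had few clones, and their counts stand beside 51.8% of all probes called, 19.3% higher and 32.5% lower. Of 11 tested clones for membrane and transport proteins, 2 rose and 2 fell in deleted cells with CoCl2. Snx6, a sorting nexin (0.83, SE 0.25), and Tmem168 (0.86, SE 0.22) rose, and Vps36, a subunit of the endosomal sorting complex ESCRT (-0.61, SE 0.23), and Tmem132c fell. Tmem132c was called at least 1.58-fold lower although its arrays overlapped, at -3.21, -3.36 and -4.24 with PBS and -5.48, -4.17 and -4.75 with CoCl2. Of 4 clones for antisense and host transcripts, Mir100hg, which hosts a microRNA cluster, rose (0.58, SE 0.17) and Sox6os and Srrm4os (-1.30, SE 0.30) fell. Sox6os was at least 1.47-fold lower and below background on all treated arrays. Of 2 translation clones, Eif5, a translation initiation factor, rose (0.65, SE 0.25, limma adjusted p = 0.0463), and Rps23rg1 was not called (0.71, SE 0.31). Eif5 lost its call without any 1 of 9 arrays (0.0534 to 0.138): the floxed PBS, deleted PBS and deleted CoCl2 arrays. With the replicate number as a block Eif5 (0.0574) and Vps36 (0.067) no longer passed. Vps36 lost its call without any 1 of 9 arrays (0.0589 to 0.141), which left floxed CoCl2 1 and 3 and deleted CoCl2 3. Snx6 lost it without deleted PBS array 2 (0.0638) or deleted CoCl2 array 2 (0.0545), Mir100hg without deleted PBS 2 (0.0561) or deleted CoCl2 3 (0.0506) and with quantile normalization (0.633), and Tmem132c without deleted PBS 1 (0.0527).

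Sf3b3, a splicing factor subunit, rose by 0.57 (SE 0.17), and Ankzf1, the 1 clone on the list of HIF-1 and hypoxia targets, was not called in either genotype (0.30 floxed, 0.31 deleted). Sf3b3 lost its call in 6 of 27 alternatives (limma adjusted p up to 0.414). Among them were the fixed slide block (0.133) and the fits without deleted PBS array 2 (0.0523) or deleted CoCl2 array 2 (0.0544). Fbln2, an extracellular matrix protein, read -3.53, -4.00 and -4.39 in deleted cells with PBS and was below background on all arrays of the other 3 groups. It passed the filter only through the group where it was high, so it had to differ, and its call is not read as a result.

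Clones at coding loci and at lncRNA loci are counted separately for CoCl2 in deleted cells, with no test of their difference. Of 93 tested clones at protein-coding loci 23 rose and 12 fell (median log2 change 0.16), and of 26 at lncRNA loci 3 rose and 9 fell (median -0.51). Among other RIKEN clones the counts were 101 and 122 of 457 at coding loci and 19 and 148 of 296 at lncRNA loci. The lean of the coding clones turns with the scaling: 14 rose and 16 fell with the 75th percentile over probes detected on all arrays, 5 and 21 with the 6 E1A probes, and 53 and 6 with the array median. The lncRNA clones had more falls than rises under each of the 7 scalings, and with the array median 6 rose and 8 fell. With no filter on dim probes, 8 of 32 lncRNA clones rose and 9 fell. Among clones detected on all 12 arrays, which leaves out those that dropped below background, 23 coding clones rose and 6 fell, and 3 lncRNA clones rose and 4 fell.

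**Figure D5:**
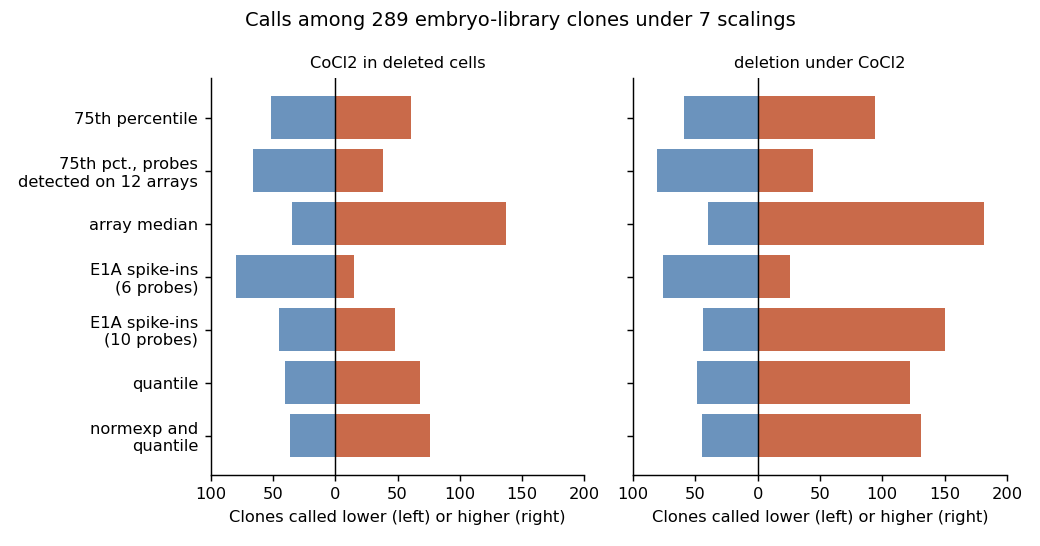
Number of clones called lower (left, blue) or higher (right, red) among the 289 tested (x axes) under 7 ways of scaling the arrays (y axis), for CoCl2 in deleted cells and for deletion under CoCl2. The 75th percentile gives 61 higher and 52 lower, and 94 higher and 59 lower, and the balance of directions moves with the scaling in both panels.

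When 1 array was left out, between 82 and 120 clones were called in deleted cells, beside 29553 to 39345 of 73998 probes. With slide as a fixed block 37 clones were called, 36 of them among the 113. Among all probes the calls fell from 38309 to 16372 with that block. Within slide 3 the mean of the CoCl2 arrays differed from the single PBS array by 2.57 for 2410038B05, 1.71 for Rnf6, 1.17 for Abhd17b, -1.90 for 2810451K12, -2.29 for 2810429I04Rik and -1.72 for Mob4.

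With PBS, deletion of Hif1a went with few differences among these clones, 6 of 289 (2.08%), 3 higher and 3 lower in deleted cells, beside a background of 1.57% of all probes (0.530% higher, 1.04% lower). Unadjusted limma p was below 0.05 for 57 of the 289 clones, beside 20907 of all 73998 probes. The clone 1110031N14 of Topbp1, a scaffold of DNA replication and damage signalling, read 2.44, 2.44 and 2.49 in floxed cells and 1.77, 1.84 and 1.48 in deleted cells. It was 1.69-fold lower (log2 difference -0.76, SE 0.15, limma adjusted p = 0.0463), without overlap, and was lower to the same extent with CoCl2 (-0.77). Sox6os read -2.98, -3.03 and -2.87 in floxed cells and -4.11, -3.71 and -3.75 in deleted cells, a difference of -0.90 (SE 0.18, adjusted p = 0.0461). Unnamed clones 5730424A19 (1.01), 2610020E23 (0.95) and 5730585K13 (0.61) were higher and 5730407O05 (-0.79) was lower, in log2.

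These 6 calls lie just under the threshold, with adjusted p from 0.0457 to 0.0488, and they are fragile. No clone was called without any 1 of floxed PBS array 1 or 2, floxed CoCl2 array 2 or 3 or the 3 deleted PBS arrays, and 1 was called without floxed PBS array 3, while 11 were called without floxed CoCl2 array 1, deleted CoCl2 array 1 or deleted CoCl2 array 2. The 1160 calls among all probes moved the same way. They were 2 to 112 where no clone was called, 417 without floxed PBS array 3, and 3913, 2581 and 2961 for the last arrays named. With slide as a random block no clone was called, and none was with the 10 E1A probes as the standard, beside 12 and 60 of 73998 probes. When only the PBS groups were fitted, 20 clones were called, the 6 among them, beside 7273 of 73998 probes. The number of calls thus also depends on which groups share the estimate of spread.

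With CoCl2, deleted cells differed from floxed cells in 153 of 289 clones (52.9%), 94 higher and 59 lower, beside a background of 67.3% of all probes (30.7% higher, 36.6% lower, and 62.9% called without overlap) and 59.3% of other RIKEN clones. The median log2 difference was 0.30 for the clones and 0.02 for all probes. The higher and lower calls became 44 and 81 with the 75th percentile over probes detected on all arrays, 26 and 76 with the 6 E1A probes and 182 and 40 with the array median. Among all probes 22695 of 49815 called were higher, and with these scalings 12340 of 43627, 8008 of 38374 and 35977 of 55866 were. With slide as a fixed block 37 clones were called, beside 19053 of 73998 probes. This contrast uses the same deleted CoCl2 arrays as the CoCl2 effect in deleted cells, so its values are set beside those and add no independent count.

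Clone 5730403L22, without a locus name, read -3.59, -3.68 and -3.88 in floxed and -1.14, -1.65 and -1.79 in deleted cells with CoCl2, 2.19 log2 units apart (SE 0.25, limma adjusted p = 3.24e-05). Among named loci the differences were 1.44 (SE 0.31) for Rps23rg1, a retrogene whose probe may also bind RNA of its parent ribosomal protein gene and is uncertain for that reason, 1.36 (SE 0.35) for Rnf6 and 1.32 (SE 0.29) for Dusp4, a phosphatase of MAP kinases. Dusp4 read 3.22, 2.83 and 3.29 in floxed and 4.56, 3.87 and 4.86 in deleted cells with CoCl2. With PBS its values were 2.70, 2.82 and 3.61 against 4.04, 4.00 and 4.26, a difference of 1.06 that was not called (adjusted p = 0.0661). Jpt2 (1.20, SE 0.31), Snx6 (1.17, SE 0.25), Tex10, a factor of ribosome production (1.05, SE 0.21), Phf6, a chromatin-binding protein (1.03, SE 0.21), Abhd17b (0.98, SE 0.25) and Cep83 (0.94, SE 0.18) were also higher. With slide as a fixed block Rps23rg1, Rnf6, Dusp4, Jpt2, Snx6, Tex10, Phf6 and Abhd17b all lost their call (limma adjusted p 0.113 to 0.447). Clone 5730403L22 (0.0243) and Cep83 (0.0269) kept it. Jpt2 also lost its call with the replicate number as a block within genotype (0.0885).

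Among the 59 lower clones, clone 2810451K12 had a log2 difference of -3.51 (SE 0.33, limma adjusted p = 1.23e-05), and 2810429I04Rik was at -3.01 (SE 0.37), Lrrn1 at -2.63 (SE 0.35) and Mob4 at -2.22 (SE 0.31). Clones below background on all 3 deleted CoCl2 arrays were at least 6.75-fold lower for 2810442N19Rik, 5.14-fold for 1110059G02, 3.56-fold for Tmem132c and 2.57-fold for 5730488B01Rik. Lrrn1 read -0.14, 0.34 and 0.34 in floxed and -3.32, -1.88 and -2.17 in deleted cells with CoCl2, without overlap. Of 93 coding clones 40 were higher and 12 lower, and of 26 lncRNA clones 2 were higher and 10 lower. The higher and lower shares were 43.0% and 12.9% of the coding clones and 7.69% and 38.5% of the lncRNA clones. Of all probes 30.7% were higher and 36.6% lower, so the share of lower lncRNA clones lay near that of all probes. Among other RIKEN clones 144 were higher and 128 lower of 457 at coding loci, and 36 higher and 175 lower of 296 at lncRNA loci. For the coding clones the counts were 19 and 19 with the 75th percentile over probes detected on all arrays and 13 and 18 with the 6 E1A probes, and for the lncRNA clones 10 and 10 with the array median.

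Slc25a24, a mitochondrial ATP carrier, was 0.77 higher (SE 0.16), Slc25a53 of the same carrier family 0.59 higher (SE 0.23), Mir100hg 0.78 higher (SE 0.17), Sf3b3 0.92 higher (SE 0.17) and Eif5 0.76 higher (SE 0.25), all in log2. Mir100hg read 5.69, 5.34 and 5.30 in floxed and 6.09, 6.03 and 6.53 in deleted cells with CoCl2. Its call was lost with quantile normalization (limma adjusted p = 0.682), with normexp and quantile normalization (0.389), with the 6 E1A probes (0.102), with slide as a fixed block (0.0586) and with the replicate number as a block within genotype (0.058). Slc25a24 lost its call with quantile normalization (0.0701), the 6 E1A probes (0.101) and the fixed slide block (0.0566). Synpo2 was lower, at -0.57 (SE 0.18), and Srrm4os at -2.07 (SE 0.30). With the replicate block within genotype Synpo2 (0.367) and Slc25a53 (0.173) were no longer called. Nor were Sf3b3 (0.067), Eif5 (0.209), Synpo2 (0.222) and Slc25a53 (0.824) called with slide as a fixed block. Synpo2 also lost its call with the array median (0.847), with the 10 E1A probes (0.558), and without floxed CoCl2 array 2 (0.0598) or 3 (0.0624), and Eif5 without deleted CoCl2 array 1 (0.0619). The call of Slc25a53 was lost without any of 7 arrays (adjusted p 0.0508 to 0.157): floxed PBS 1, the 3 floxed CoCl2 arrays, deleted PBS 2 and deleted CoCl2 1 and 2.

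The CoCl2 effect itself differed between genotypes, by limma's test of the difference, for 28 of 289 clones (9.69%), 5 with a more positive and 23 with a more negative change in deleted cells, beside a background of 19.7% of all probes (2.54% more positive, 17.2% more negative) and 14.8% of other RIKEN clones. All 23 were called lower with CoCl2 in deleted cells and not called in floxed cells, a pattern that was not counted over all probes. Of the 23, 15 were not detected on all 12 arrays. Of all probes 12716 were more negative, 4374 of them detected on all 12 arrays. Among them were 2810451K12, with a difference of -2.76 (SE 0.47, adjusted p = 0.00443), 2810429I04Rik at -2.50 (SE 0.53) and Mob4, detected on 1 of the 3 deleted CoCl2 arrays, at -2.07 (SE 0.44). The positive side held Abhd17b at 1.09 (SE 0.35, adjusted p = 0.049) and Rnf220 at 0.74 (SE 0.21). Abhd17b lost its call without each array but deleted CoCl2 array 3 (adjusted p up to 0.117), and Rnf220 lost it without any 1 of 7 arrays (0.0542 to 0.0862): the floxed PBS arrays, floxed CoCl2 2 or 3, and deleted PBS 1 or 2. With the replicate block within genotype Rnf220 was at 0.0574.

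The count of such clones was 15 and 16 without deleted PBS array 1 and 2, 17 without floxed PBS array 2 or floxed CoCl2 array 3, 18 without floxed CoCl2 array 2, and 43 to 45 without deleted CoCl2 array 2 or 3 or floxed CoCl2 array 1. It was 0 with slide as a fixed block, beside 244 of 73998 probes. Among all probes, leaving out 1 array gave 7244 to 19097 calls. The 5 positive and 23 negative differences became 54 and 19 with the array median and 0 and 37 with the 6 E1A probes. Among all probes 1876 of 14592 called were more positive, against 13433 of 22133 with the array median and 139 of 18285 with the 6 E1A probes.

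With CoCl2 in deleted cells the called share of tested clones ran from 33.3% for prefix 2610 to 45.8% for 5730, which no test compared, beside 51.8% of all probes. In floxed cells 3 of 26 clones of prefix 2700 were called and 1 of 83 of prefix 5730, beside 4.64% of all probes. Across the 12 arrays the clones most like 2410038B05 in profile were 2700007L21 (Pearson r = 0.957), 2810040C05 (0.957) and Ttll7 (0.946). Those most like 2810451K12 were 5730408K05Rik (0.977), 2610024J18 (0.976) and Ppp2r3c (0.968). These values describe 12 arrays that share their groups, so they carry the group differences already given.

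At 2 loci a pair of clones was present, and these were looked at for that reason. Both clones of Bclaf1, a nuclear factor of RNA processing, rose with CoCl2 in deleted cells, by 0.83 (SE 0.19, limma adjusted p = 0.00361) and 0.68 (SE 0.25, adjusted p = 0.0399) on the log2 scale. At 5730408K05Rik, clone 5730408K05 fell by 1.53, and clone 2610018C13 was not called (-0.73, SE 0.47, limma adjusted p = 0.212). The difference between these clones was not tested. No contrast called 114 of the 289 clones.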

How the data were processed

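RNA of 12 VSMC samples, 3 in each of 4 groups, was hybridised to single-colour Agilent arrays. Per the file headers, the deposited spot intensity was extracted with Feature Extraction 11.5.1.1 under protocol GE1_1105_Oct12, background-subtracted by that software, and the array design refers to mouse build mm9. The submitters' processing notes name Feature Extraction 9.1. The labels give biotin as the label, while their protocol describes Cy3. The authors also deposited a log2 value table of the same arrays, and how it was made was not given in the sources used here. On each array its difference from the values used here lay within 0.01 of that array's median difference for at least 97835 of 97836 probes, and it served as an alternative.

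From the intensities, log2 processed signal was averaged over the spots of a probe, without spots marked as outliers, and set relative to the 75th percentile over that array's probes. Control spots were left out. Probes detected on every array of 1 or more groups, 73998 of 97836, entered limma 3.58.1 (R 4.3.3) with all 4 groups in 1 fit (residual df 8, prior df 3.50), and p-values were Benjamini-Hochberg adjusted over all of them. The 4 groups shared 1 estimate of spread although their spreads differed. The median SD of the 289 clones was 0.19 in floxed PBS, 0.25 in floxed CoCl2, 0.19 in deleted PBS and 0.32 in deleted CoCl2 cells. The embryo-library clones and the gene lists were chosen with earlier results of these data known, so no p was adjusted over a list alone. Of 20 lists prepared, 11 held a clone, 36 clones in all.

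Clones named in the text followed a rule. For each contrast these were, among called clones with 1 locus and no overlap between the groups, the 8 largest rises and falls; among all called clones, the 3 largest rises and falls; and list members called in at least 1 contrast. Overlap was not considered for the difference of effects. The rule also picked clones not described above. These were 2610027K06Rik and 5730448F11, called lower with CoCl2 in deleted cells, and 2410044B02, called higher in deleted than in floxed cells with CoCl2. Clones outside the rule, such as the remaining calls in floxed cells and the loci with a pair of clones, were named after their values were seen. Clones were matched to RefSeq by symbol or synonym (GRCm38.p6).

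Alternatives were quantile normalization, normexp (offset 50) on the median signal, since the mean signal is not used here, the array median, E1A spike-in probes as the standard, other filters, slide and replicate number as blocks, and leaving out each array. Replicate numbers are given in the labels without a shared batch. Deviations from the group means correlated at 0.389 to 0.441 between floxed arrays of the same number. For deleted arrays the correlations were -0.134 to 0.269, and for arrays of the same number in different genotypes -0.159 to 0.222. Arrays of different numbers were not compared in this way, so whether the numbers mark pairs was not tested. The fit was tested on simulated data before use. Those data had the same spread in every group and no slide effect, so they do not test the fit where spreads differ or slides matter.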

Additional observations from a re-analysis of the deposited data

Results flagged for a closer look

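For 14 named clones the CoCl2 effect differed between deleted and floxed cells by limma's test of the difference, with Benjamini-Hochberg adjusted p from 0.00237 to 0.049 over all probes tested. The values are the log2 change with CoCl2 in deleted cells minus that in floxed cells. The differences were negative for 2810451K12 (-2.76), 2810429I04Rik (-2.50), 2610312I10 (-2.42), 2810442N19Rik (-2.35), Mob4 (-2.07), 5730488B01Rik (-1.82), Srrm4os (-1.73), Tmem132c (-1.73), 5730408K05Rik (-1.26) and Tspan18, a tetraspanin (-1.12). Clones 2610312I10, 2810442N19Rik, 5730488B01Rik and Tmem132c were below background on all 3 deleted CoCl2 arrays, so their values are fitted to signals not well above background, are not measured sizes and have no order. The differences were positive for 5730419M06 (1.89), 5730403L22 (1.15), Abhd17b (1.09) and Rnf220 (0.74). All 3 deleted CoCl2 arrays lay on slide 3 and no floxed array did, and with slide as a fixed block none of the 14 was called, so slide and group cannot be told apart for much of this contrast. Leaving out 1 array ended the call of Srrm4os without floxed CoCl2 2 or deleted PBS 1 or 2 (adjusted p 0.0514 to 0.0532) and of Tspan18 without floxed PBS 2, floxed CoCl2 3 or deleted PBS 1 (0.0521 to 0.053). Tmem132c lost its call without 6 single arrays (0.0502 to 0.075), namely floxed PBS 2, floxed CoCl2 2 or 3, deleted PBS 1 or 2 and deleted CoCl2 1. Clone 5730403L22 lost it without those 6 or floxed PBS 1 (0.0838 to 0.107), and 5730419M06 without those 6, floxed PBS 3 or deleted CoCl2 2 (0.064 to 0.117). With the replicate number as a block 5730419M06 was at 0.0704, and with that block within genotype it was at 0.0836 and Rnf220 at 0.0574.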

How the results depend on the processing

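Over 95 results for named clones and 27 alternatives, 2520 values in all, no direction reversed, 2135 kept their call and 385 lost it. The deposited value table, nearly equal to the values used here, kept every call, and so did keeping outlier spots. Most named results were picked as the largest called changes, so a lack of reversals was likely beforehand. All alternatives left 25 results called, and 46 held in all but the fixed slide block. With slide as a fixed block the calls were 0 for CoCl2 in floxed cells, 37 for CoCl2 in deleted cells, 1 for deletion under PBS, 37 for deletion under CoCl2 and 0 for the difference, and with slide as a random block 0 for deletion under PBS and 14 for the difference. Among all 73998 probes the fixed block gave 617, 16372, 2073, 19053 and 244 calls in that order. The random block gave 12 and 6960 among all probes for the same 2 contrasts. The counts that follow are of the clones. With the array median they were 172 for CoCl2 in deleted cells, 3 for deletion under PBS and 73 for the difference. Normexp with quantile normalization gave 12 for deletion under PBS and 17 for the difference. With all E1A probes as the standard 9 clones were called for CoCl2 in floxed cells and 0 for deletion under PBS, which also had 0 with no filter on dim probes and 20 when only the groups compared were fitted. Such fits gave 10 for CoCl2 in floxed cells, 99 for CoCl2 in deleted cells and 130 for deletion under CoCl2. Probes above background on all arrays gave 10 for the difference, where fewer clones were tested. With the replicate block the calls were 12 for CoCl2 in floxed cells, 114 for CoCl2 in deleted cells, 3 for deletion under PBS, 160 for deletion under CoCl2 and 30 for the difference. With the replicate block within genotype they were 13, 127, 0, 97 and 29 in that order. Leaving out 1 array gave 3 to 19 calls for CoCl2 in floxed cells, 82 to 120 for CoCl2 in deleted cells, 0 to 11 for deletion under PBS, 126 to 164 for deletion under CoCl2 and 15 to 45 for the difference. Among all probes it gave 1002 to 4271, 29553 to 39345, 2 to 3913, 43692 to 49658 and 7244 to 19097 in that order. When every spot of a probe had to be above background, the detected share was 79.1% in floxed PBS, 82.0% in deleted PBS and 67.4% in deleted CoCl2 cells. The cause of these shifts was not tested. For dim clones near background, the signal over background limits how far a fall can be measured.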
